A study of Arabidopsis thaliana with 12 samples.

Results

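The induction of PEAR2 by estriol was examined in entire roots of Arabidopsis seedlings. It comprises 4 of the 12 one-colour arrays of a study of 3 inducible Dof lines, and covers the 16548 genes that remain from 16722 of the 28583 table entries, those that name exactly 1 gene. The estriol group (2 arrays) held roots of ER8PEAR2 in the SUC2p::GFP-GUS background after 16 h on 10 µM estriol, and the mock group (2 arrays) held roots of the same line after 16 h without it. For comparison, the Dof2.2 line in that same background and the Dof1.1 line in the background given as S32/Col had an estriol and a mock group each, again with 2 arrays per group. All plants were 68 h old and grew under continuous light. Every line carried a Dof gene under ER8, a vector that an estrogen switches on. No array without a Dof transgene was used here, so an effect of estriol and an effect of the transgene cannot be told apart. Sources used here do not say how many independent transformants stand behind the line.

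PEAR2 is a plant-specific transcription factor with a Dof-type zinc finger. PEAR proteins are made in the young phloem, the sugar-conducting tissue, move into neighbouring cells and promote their division in the growing vascular cylinder. HD-ZIP III factors of the xylem side limit this activity. The comparison asks which root transcripts differ when such a gene is switched on.

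PEAR2 (AT5G02460) stood at 12.25 and 12.24 in estriol arrays, against 7.92 and 7.81 in mock arrays, as deposited log2 signal. Its log2 change was 4.38 ± 0.2 (SE, 2 arrays per group), or 20.8-fold, with an adjusted p of 8.68e-07 in limma's moderated test. Each SE comes from limma's fit of all 12 arrays, so it pools the spread within groups over every line and is moderated. It does not measure the spread of the PEAR2 arrays alone. Changes below are log2 differences of estriol minus mock with their SE, and each adjusted p comes from limma with Benjamini-Hochberg adjustment over all 16548 genes and a threshold of 0.05. A gene "rose" or "fell" only where it passed that threshold. A group mean below the lower quartile of all table entries (4 in estriol and 4.04 in mock arrays) is called dim, and changes from or to a dim level are not exact.

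In the PEAR2 line 3105 genes passed, which is 18.8% of those tested. Rises numbered 1378 (8.33%) and falls 1727 (10.4%). Falls also reached 2-fold more often, with 1133 genes lower by at least 2-fold (6.85%) and 647 higher by at least 2-fold (3.91%). The median change was -1.25 among genes that fell and 0.93 among genes that rose, while the median of all genes was 0.03. Genes that fell had a median mock level of 7.58 and genes that rose one of 6.33. Of the 1378 rises, 274 started from a dim mock level, and of the 1727 falls, 245 ended at a dim estriol level. Most genes in both directions are known by locus number only, and 173 rises and 213 falls have a gene name. Between the 2 arrays of a group the correlation over entries was 0.993 in estriol and 0.995 in mock roots, against 0.955 to 0.959 between estriol and mock arrays. Leaving out any 1 of the 4 arrays, 1859 to 2043 genes passed. In whole roots, fewer cells of a type and less RNA per cell cannot be told apart.

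Named genes were sorted into 58 families and processes, 49 of them with at least 8 measured members. In 11 of these at least 30% of the members passed in 1 direction, 9 with falls and 2 with rises. Leaving out any 1 array, 4 or 5 families did so. Since this same comparison singled them out, their shares are a description. Counts of members below are to be read beside the shares over all genes, 8.33% risen and 10.4% fallen. Some genes belong to more than 1 family and are counted in each. The families with falls build or modify the cell wall, make or conjugate small molecules such as phenolics, or belong to the ER body. The 2 with rises were DNA replication and repair and the TRM and TON1 proteins.

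**Figure D1:**
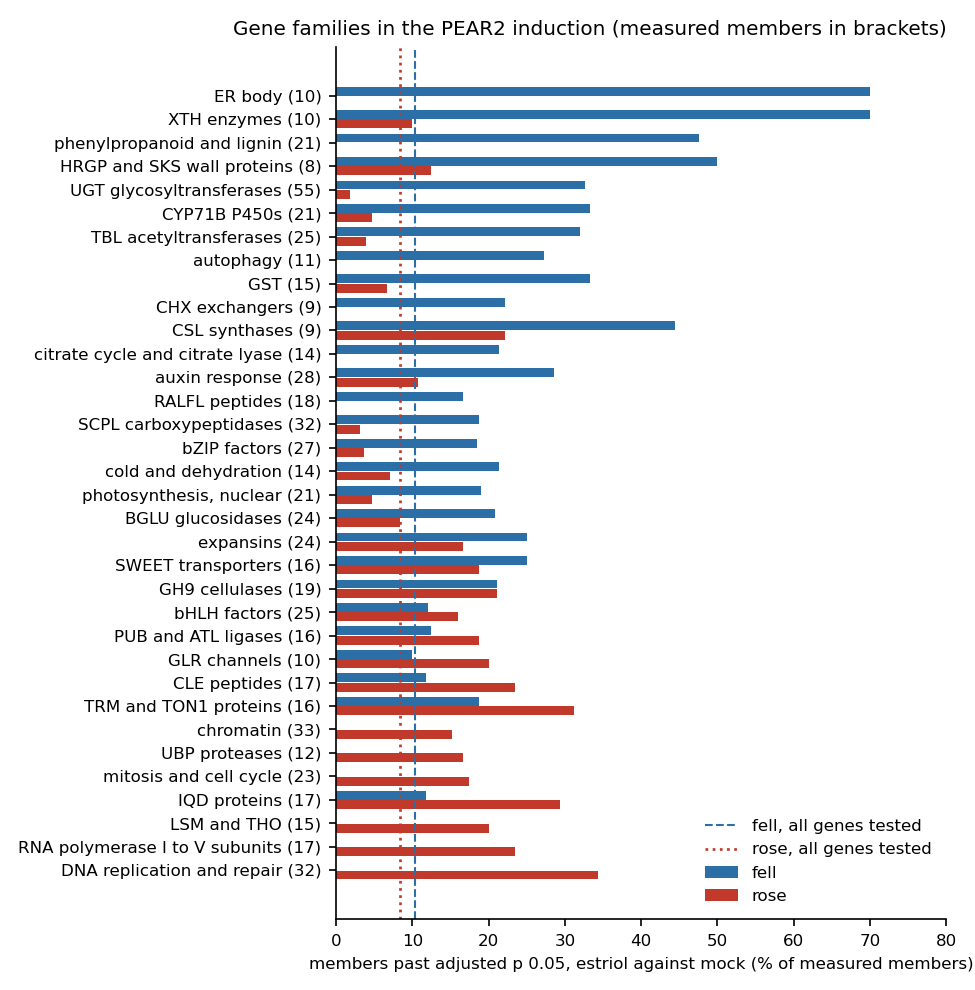
Share of measured members that rose (red) or fell (blue) past an adjusted p of 0.05 in the PEAR2 induction, for families with at least 8 measured members and at least 15% of them past it in 1 direction. The dashed and dotted lines give the shares over all genes tested, 10.4% fell and 8.33% rose; the ER body and XTH groups stand at 70% fell, and DNA replication and repair at 34.4% rose.

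Cell wall genes fell in several families. The plant cell wall consists of cellulose held together by hemicelluloses such as xyloglucan and xylan, and its enzymes loosen, cut or build these polymers as cells grow. Among 10 XTH genes, whose enzymes cut and rejoin xyloglucan chains, 7 fell and 1 rose, with a median change of -1.66. XTH19 (AT4G30290) stood at 4.91 and 5.07 in estriol arrays, against 7.35 and 7.52 in mock arrays. Its change was -2.45 ± 0.27 (adjusted p = 0.000135), a 5.45-fold fall, and the groups lay far apart. XTH32 changed by -1.94 ± 0.24, XTH16 by -1.86 ± 0.51, XTH21 by -1.83 ± 0.42 and XTH26 by -1.77 ± 0.29. The exception was XTH29 (AT4G18990), at 7.84 and 7.63 in estriol and 4.46 and 4.16 in mock arrays, a rise of 3.43 ± 0.32 (adjusted p = 5.01e-05). Leaving out any 1 array gave 3 to 5 XTH falls. XTH16 and XTH21 each lost the call without 3 of the 4 arrays in turn, with adjusted p-values up to 0.214 and 0.0997.

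Among genes of wall acetylation, calls were mainly falls. TBL proteins transfer acetyl groups onto wall polymers, and 8 of 25 TBL genes fell while 1 rose (median change -0.32). TBL41 (AT3G14850) was at 4.28 and 4.74 in estriol arrays and 7.57 and 7.76 in mock arrays, a change of -3.16 ± 0.24 (adjusted p = 1.47e-05). TBL19 changed by -2.4 ± 0.27. TBL30, TBL34 and TBL33, of the group of xylan acetyltransferases, changed by -1.33 ± 0.19, -1.28 ± 0.22 and -1.11 ± 0.18. TBL26 had a rise of 2.04 ± 0.2. The count of TBL falls was 8 whichever array was left out.

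The cellulose synthase-like (CSL) genes changed in both directions. Of 9 measured, 4 fell and 2 rose (median change -0.36), and these counts were the same whichever array was left out. CSLC enzymes make the glucan backbone of xyloglucan, and CSLC12 (AT4G07960) fell to 5.78 and 6.3 in estriol arrays, against 7.7 and 7.98 in mock arrays. Its relatives CSLC04 and ATCSLC08 rose by 1.09 ± 0.17 and 1.83 ± 0.16, where CSLC12 changed by -1.8 ± 0.25 (adjusted p = 0.000642). CSLC04 was bright throughout, at 11.6 and 11.59 in estriol and 10.53 and 10.48 in mock arrays. Among the other subgroups, CSLA03 of the mannan synthase family changed by -2.07 ± 0.19 and CSLB03, down to a dim level, by -2.07 ± 0.34. CSLD2, which root hair growth requires, changed by -1.24 ± 0.15. Structural and related wall proteins formed a group of HRGP and SKS genes together with COB and EXO. Of its 8 genes 4 fell and 1 rose (median change -0.82). The falls were AT5G19800 (-2.27 ± 0.22), HRGP1 (-1.36 ± 0.22), sks15 (-1.16 ± 0.34) and COB (-0.49 ± 0.14), and COB encodes a surface protein needed for oriented cellulose deposition. EXO, a growth gene induced by brassinosteroids, rose by 1.17 ± 0.23, but not without the second estriol array (adjusted p = 0.0557). The count of falls was 2 whichever array was left out, and sks15 and COB then reached adjusted p-values up to 0.223 and 0.193.

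**Figure D2:**
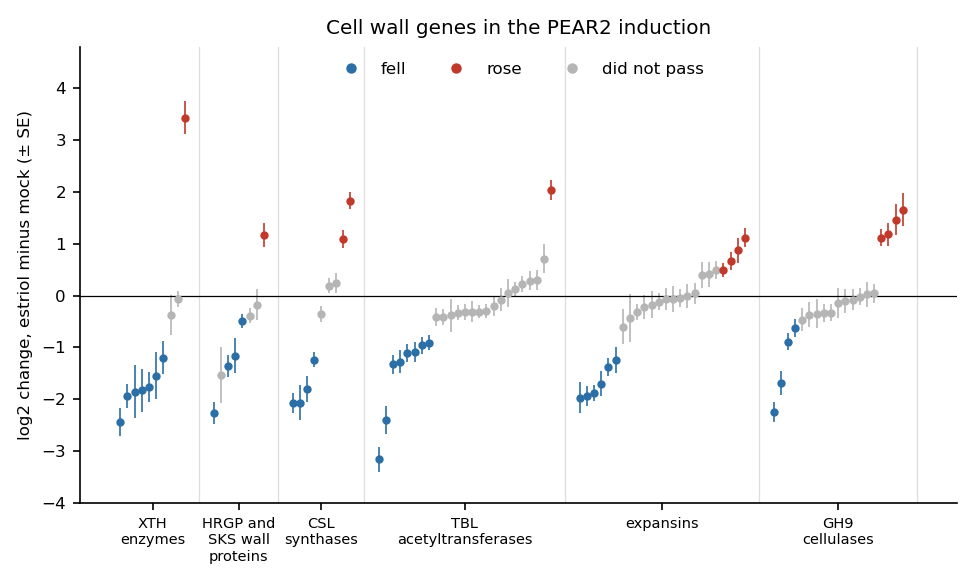
Log2 change of estriol minus mock with its SE for every measured member of 6 cell wall gene families in the PEAR2 line, members ordered by change within a family. Falls past the threshold reach -3.16 (TBL41), and single members rise in the XTH family (3.43, XTH29), the TBL family (2.04, TBL26) and the CSL family (1.83, ATCSLC08).

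Expansins, which loosen the wall without cutting it, moved both ways: 6 of 24 fell and 4 rose, with a median change of -0.09. EXPA18 (AT1G62980), an expansin of root hairs, was at 9.15 and 9.19 in estriol arrays and 11.03 and 11.07 in mock arrays, a change of -1.88 ± 0.15 (adjusted p = 2.17e-05). EXPA7, also of root hairs, was at 7.65 and 7.76 in estriol and 9.67 and 9.62 in mock arrays (-1.94 ± 0.19). EXLA2 changed by -1.97 ± 0.29. The rises were smaller, and EXPA4 had the largest at 1.12 ± 0.19. Without any 1 array, 5 or 6 falls and 1 rise were counted. EXPA7 and EXPA18 are also the measured members of the root hair marker list, 2 of 24 listed genes, and their summed linear signal was 769 and 801 in estriol arrays against 2906 and 2937 in mock arrays. What a change in root hair cells contributes to the falls of wall genes was not tested.

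The GH9 family of cellulase-type hydrolases was also divided, since 4 of 19 members fell and 4 rose (median change -0.15). GH9C1 (AT1G48930) stood at 8.17 and 8.47 in estriol arrays, against 10.48 and 10.66 in mock arrays, a change of -2.25 ± 0.19 (adjusted p = 2.5e-05). GH9B6 (AT1G23210) stood at 8.21 and 8.7 in estriol arrays, against 6.7 and 6.9 in mock arrays, a change of 1.66 ± 0.32 (adjusted p = 0.00513). Neither gene had overlapping groups. Of 11 pectin enzymes, 1 fell and none rose.

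Calls among genes of phenylpropanoid and lignin metabolism were all falls. This pathway turns phenylalanine into monolignols, the building blocks of lignin, which are stored as glucosides and released by beta-glucosidases. Of 21 measured genes 10 fell, none rose and 11 did not pass, and the median change was -0.86, with 5 changes above 0. UGT72E2 (AT5G66690), which glucosylates monolignols, was at 4.02 and 4.48 in estriol arrays and 6.34 and 6.46 in mock arrays, a change of -2.15 ± 0.22 (adjusted p = 8.19e-05). UGT72E1, of the same subfamily, was at 7.08 and 7.52 in estriol and 9.09 and 9.48 in mock arrays (-1.99 ± 0.36, adjusted p = 0.00351), while UGT72E3 did not pass. The opposite step fell too. BGLU45 (AT1G61810), a monolignol glucosidase, was at 4.76 and 4.93 in estriol arrays and 6.93 and 6.86 in mock arrays, a change of -2.05 ± 0.31 (adjusted p = 0.00103). BGLU47 changed by -2.22 ± 0.26 and the laccase gene LAC16 by -1.67 ± 0.39. The count of falls was 6 or 7 with 1 array left out, and LAC16 then reached an adjusted p of 0.0914 (0.0543 with same-numbered arrays paired). None of the 7 measured flavonoid genes passed by limma (2 at an unadjusted p below 0.05), with changes between -0.72 and 0.04.

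Most measured genes of the ER body fell, while its main root enzyme did not pass. ER bodies are rod-shaped compartments of root and seedling cells in the mustard order that store beta-glucosidases for defence, and jacalin-related lectins (JAL) assemble with these enzymes when cells are damaged. Of 10 measured genes 7 fell and none rose, with a median change of -1.2 and all 10 changes below 0. NAI1 (AT2G22770), the transcription factor that ER body formation requires, was at 6.52 and 6.44 in estriol arrays and 8.43 and 8.4 in mock arrays, a change of -1.94 ± 0.28 (adjusted p = 0.000768). The lectin gene JAL22 was at 8.57 and 8.28 in estriol and 10.56 and 10.39 in mock arrays (-2.05 ± 0.44), and JAL31, JAL34 and JAL33 changed by -1.92 ± 0.32, -1.73 ± 0.18 and -1.38 ± 0.29. In each of these genes both estriol arrays lay below both mock arrays. NAI2, a structural component of the compartment, stood at 11.51 and 11.71 in estriol arrays against 12.56 and 12.68 in mock arrays (-1.01 ± 0.14). PYK10, the main glucosidase of root ER bodies, stood at 13.17 and 13.27 in estriol and 13.43 and 13.49 in mock arrays, a change of -0.24 ± 0.15 (adjusted p = 0.345). That is near the top of the signal range, where an array can compress differences. Omitting 1 array left 4 to 6 falls, and JAL22 and JAL33 then reached adjusted p-values up to 0.0588 and 0.0617.

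Enzyme families that modify small molecules had more falls than rises. UGT enzymes attach sugars to hormones, phenolics and foreign compounds, and 18 of 55 UGT genes fell while 1 rose (median change -0.18, 43 changes below 0). UGT73D1 (AT3G53150) was at 4.69 and 4.63 in estriol arrays and 7.23 and 7.09 in mock arrays, a change of -2.5 ± 0.14 (adjusted p = 2.62e-06). UGT71C1 changed by -1.98 ± 0.15 and UGT84A4, down to a dim level, by -1.68 ± 0.22. UGT72E1 and UGT72E2 of the lignin group belong here as well. UGT74F1 (AT2G43840), which glucosylates salicylic acid, was the rise, at 8.98 and 9.07 in estriol and 6.39 and 6.57 in mock arrays (2.55 ± 0.16, adjusted p = 4.92e-06). Between 14 and 16 UGT falls were counted with 1 array left out.

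Of 21 CYP71B genes, which encode cytochrome P450 oxidases, 7 fell and 1 rose (median change -0.2), but 12 were dim in both groups. CYP71B34 was at 6.55 and 6.95 in estriol arrays and 8.99 and 8.99 in mock arrays (-2.24 ± 0.41, adjusted p = 0.00359), and CYP71B29 changed by -2.2 ± 0.3. CYP71B5 (AT3G53280) went the other way, at 7.11 and 6.62 in estriol and a dim 2.63 and 3.26 in mock arrays, a change of 3.92 ± 0.27 (adjusted p = 8.48e-06). CYP71B23, CYP71B6 and CYP71B26 changed by -1.35 ± 0.32, -1.22 ± 0.27 and -1.14 ± 0.29, and each lost its call without 3 of the 4 arrays in turn (adjusted p up to 0.0955, 0.0644 and 0.13). With same-numbered arrays paired CYP71B23 had an adjusted p of 0.0677. Only 2 to 5 CYP71B falls were counted with any 1 array left out.

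Glutathione transferases (GST) join glutathione to reactive compounds, and 5 of 15 fell and 1 rose (median change -0.03). GSTU22 (AT1G78340) was at 8.08 and 8.06 in estriol arrays and 10.29 and 10.29 in mock arrays, a change of -2.22 ± 0.16 (adjusted p = 1.11e-05). GSTU28, GSTU26, GSTU18 and GSTU16 changed by -1.89 ± 0.23, -1.83 ± 0.23, -1.08 ± 0.28 and -0.79 ± 0.22. GSTU15 rose by 1.86 ± 0.31 from a dim mock level. The count of falls was 3 or 4 with 1 array left out, and GSTU18 and GSTU16 reached adjusted p-values up to 0.157 and 0.15. GSTU18 had one of 0.0509 with same-numbered arrays paired. Nearer the background were the BGLU glucosidases and the SCPL carboxypeptidases. Of 24 BGLU genes 5 fell (2 or 3 with 1 array left out) and 2 rose, with BGLU40 at 2.73 ± 0.22. Among these falls BGLU45, BGLU46 and BGLU47 are already counted in the lignin group, and another in the ER body. Of 32 SCPL genes 6 fell (3 to 5 with 1 array left out) and 1 rose, with SCPL34 at -2.25 ± 0.21. Among 7 methionine sulfoxide reductase genes, whose enzymes repair oxidised methionine, 2 fell. MSRB6 (AT4G04840) was at 4.68 and 4.86 in estriol arrays and 7.87 and 8.29 in mock arrays, a change of -3.31 ± 0.29 (9.92-fold, adjusted p = 3.21e-05). MSRB9 changed by -1.87 ± 0.34.

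Sugar transporter genes moved in both directions. SWEET proteins let sugars pass down a gradient, and 3 of 16 SWEET genes rose while 4 fell (median change 0.07). SWEET11 (AT3G48740), which exports sucrose across the plasma membrane during phloem loading in leaves, was at 10.69 and 10.98 in estriol arrays and 6.96 and 6.69 in mock arrays. Its change was 4.01 ± 0.55, or 16.1-fold (adjusted p = 0.000583). SWEET13, of the same clade of sucrose exporters, was at 8.57 and 8.34 in estriol and 6.39 and 6.58 in mock arrays (1.97 ± 0.26), and SAG29, another name of SWEET15, had a change of 1.05 ± 0.29. Among the falls were SWEET16, SWEET2 and SWEET17, whose products work at the vacuole membrane. SWEET16 (AT3G16690) was at 4.79 and 5.29 in estriol arrays and 7.65 and 7.38 in mock arrays (-2.48 ± 0.22, adjusted p = 3.87e-05), SWEET2 changed by -2.05 ± 0.29 and SWEET17 by -1.58 ± 0.27. SWEET1, a glucose transporter of the plasma membrane, also fell (-1.51 ± 0.34). Without any 1 array, 2 or 3 rises and 3 or 4 falls were counted, and SAG29 and SWEET1 reached adjusted p-values up to 0.183 and 0.0726. SAG29 had one of 0.0649 with same-numbered arrays paired.

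Genes for vacuolar sugar importers of the TMT family did not share 1 direction. TMT1 (AT1G20840) was at 10.74 and 10.9 in estriol arrays and 11.75 and 11.71 in mock arrays (-0.91 ± 0.16), and TMT3 was at 5.5 and 5.83 in estriol and 4.43 and 4.41 in mock arrays (1.25 ± 0.22). Of 5 TMT and SFP genes 2 rose and 2 fell, and 1 of each was counted with any 1 array left out.

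**Figure D3:**
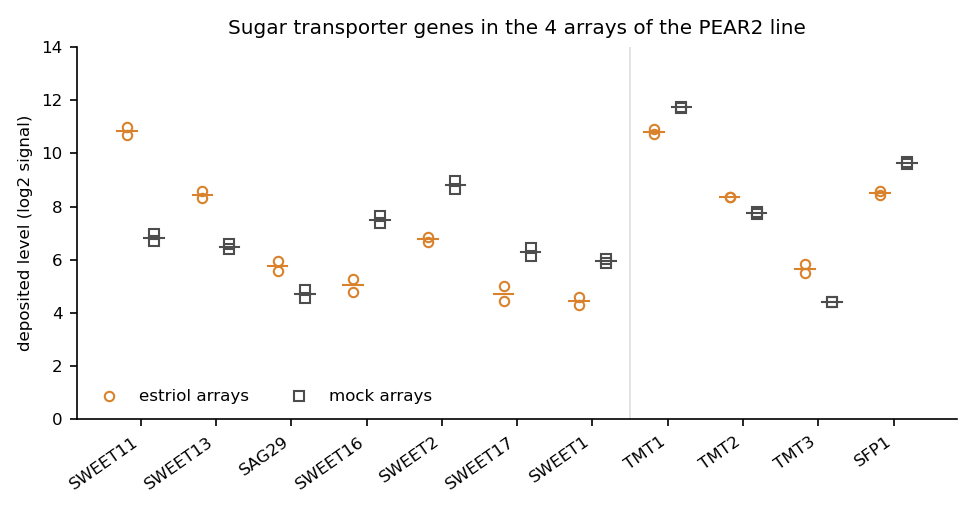
Deposited log2 signal of the SWEET, TMT and SFP genes that passed in the PEAR2 line, with estriol arrays (circles) left of mock arrays (squares) and a bar at each mean. SWEET11 stands at 10.69 and 10.98 in estriol against 6.96 and 6.69 in mock arrays, and SWEET16, SWEET2, SWEET17 and SWEET1 stand lower in estriol; signals of different genes are not on 1 scale.

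Small secreted peptides included large single rises. LCR peptides are short cysteine-rich proteins related to defensins. Of 67 genes 10 rose, 14.9% against 8.33% of all genes, and none fell, though 48 were dim in both groups. LCR42 (AT3G23165) was at 10.35 and 10.46 in estriol arrays and a dim 2.03 and 2.35 in mock arrays (8.22 ± 0.35, adjusted p = 5.94e-07). CLE peptides signal between cells, and 4 of 17 CLE genes rose and 2 fell. CLE41 (AT3G24770), which encodes the TDIF peptide that keeps vascular cambium cells dividing, was at 11.84 and 11.73 in estriol and 8.56 and 8.49 in mock arrays (3.26 ± 0.23, adjusted p = 9.15e-06). Its relatives CLE44 and CLE42 rose by 2.3 ± 0.19 and 2.02 ± 0.27, and CLE25, a phloem peptide gene, by 2.35 ± 0.15. Of the 2 falls CLE14 had -1.8 ± 0.21, and 1 fall was counted with 1 array left out. Of 18 RALFL genes, whose peptides act on wall-linked receptor kinases, 3 fell and none rose, with RALFL27 at -2.64 ± 0.19.

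Among 28 auxin response genes, 8 fell and 3 rose (median change -0.07). Auxin signals through Aux/IAA repressors, and GH3 enzymes join the hormone to amino acids and so lower its active pool. GH3.3 (AT2G23170) was at 5.38 and 5.16 in estriol arrays and 7 and 7.01 in mock arrays (-1.74 ± 0.37, adjusted p = 0.00774), and GH3.17 changed by -1.69 ± 0.25. The Aux/IAA gene IAA18 (AT1G51950) rose, at 9.05 and 8.87 in estriol and 6.97 and 6.8 in mock arrays (2.08 ± 0.19, adjusted p = 3.61e-05), while IAA31 changed by -1.36 ± 0.18. WES1, another name of GH3.5, did not pass, with 8.22 and 8.22 in estriol and 8.18 and 8.4 in mock arrays (-0.07 ± 0.2, adjusted p = 0.877). Omitting 1 array, 4 to 6 auxin response genes fell and 2 rose, and GH3.3 lost its call without the second estriol array (adjusted p = 0.0539). None of 8 phosphorelay regulators of cytokinin signalling passed by limma (1 at an unadjusted p below 0.05), while 1 fell without the first estriol array and 1 with array weights. RR16, another name of ARR16 and a response gene of cytokinin, stood at 5.18 and 3.94 in estriol and 5.63 and 5.68 in mock arrays (-1.1 ± 0.38, adjusted p = 0.0734), with -1.72 to -0.48 when 1 array was left out, and ARR15 changed by 0.54 ± 0.66 (adjusted p = 0.667).

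Transcription factor families held calls in both directions. Of 27 bZIP genes 5 fell, 18.5% against 10.4% of all genes (2 to 4 with 1 array left out), and 1 rose, with BZIP34 at -2.4 ± 0.16 and bZIP48 at 3.09 ± 0.28. Of 25 bHLH genes 4 rose, 16.0% against 8.33% of all genes (2 with 1 array left out), and 3 fell. Among these falls was UPB1 (AT2G47270), which controls peroxidase genes at the root's transition to elongation, at 5.29 and 5.37 in estriol and 6.76 and 6.47 in mock arrays (-1.29 ± 0.19, adjusted p = 0.000941). Among 10 B3 factor genes, 7 of them dim in both groups, 1 rose (10.0%, near the 8.33% of all genes) and none fell. The rise was that of REM22, dim in mock arrays, at 3 ± 0.36. Of 7 WRKY genes, whose factors act mainly in defence, 2 fell and 1 rose. WRKY29 was at 8.46 and 8.38 in estriol and 10.08 and 9.97 in mock arrays (-1.61 ± 0.2), while WRKY20 was at 10.15 and 10.09 in estriol and 8.98 and 8.8 in mock arrays (1.23 ± 0.16).

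Genes for microtubule-associated proteins changed in both directions. TRM and TON1 proteins place microtubule arrays and the plane of cell division, and 5 of 16 rose and 3 fell (median change -0.08). TRM19 (AT3G53540) was at 9.13 and 9.12 in estriol arrays and 7.28 and 7.34 in mock arrays, a change of 1.82 ± 0.15 (adjusted p = 1.9e-05). TRM24, TRM15, TRM21 and TON1B had smaller rises of 0.9 ± 0.21, 0.75 ± 0.17, 0.63 ± 0.17 and 0.5 ± 0.15, and TRM26 and ATOBGM changed by -1.2 ± 0.16 and -0.82 ± 0.23. The count of rises was 1 or 2, and of falls 1, with 1 array left out. TRM15, TRM21, TON1B and ATOBGM then lost their calls each time (adjusted p up to 0.0753, 0.135, 0.224 and 0.18), and TRM24 without either second array (up to 0.129). IQD proteins link calmodulin to microtubules. Here 5 of 17 rose and 2 fell, with iqd15 (AT3G49380) at 10.12 and 10.52 in estriol and 8.35 and 8.16 in mock arrays (2.07 ± 0.2), and IQD19 at 6.92 and 7.47 in estriol and 9.37 and 9.38 in mock arrays (-2.18 ± 0.26). Among 7 tubulin genes, TUBG1 for the gamma-tubulin of nucleation sites rose by 0.8 ± 0.15, and the beta-tubulin genes TUB1 and TUB5 changed by -1.08 ± 0.24 and -0.96 ± 0.25 (adjusted p up to 0.0928 and 0.162 with 1 array left out).

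In genes for DNA replication and repair, rises were modest and falls absent. Of 32 measured genes 11 rose, 34.4% against 8.33% of all genes, and 30 had a change above 0 (median change 0.37). BRCA2B (AT5G01630), which loads the strand-exchange protein in recombination, was at 9.12 and 9.38 in estriol arrays and 7.43 and 7.62 in mock arrays, a change of 1.73 ± 0.21 (3.31-fold, adjusted p = 0.000292). POLH (AT5G44740), a polymerase that copies past damaged bases, was at 8.01 and 8.17 in estriol and 6.65 and 6.93 in mock arrays (1.3 ± 0.25, adjusted p = 0.00454). RECQ4B, a helicase gene, was at 8.86 and 8.71 in estriol and 7.99 and 8.03 in mock arrays (0.78 ± 0.13). In these 3 genes the groups did not overlap. POLD3, for a subunit of the replicative polymerase delta, rose by 0.77 ± 0.17 and RAD9, for a part of a checkpoint clamp, by 0.76 ± 0.18. The count of rises was 4 or 5 with 1 array left out, and POLD3 and RAD9 reached adjusted p-values up to 0.0771 and 0.127.

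Related nuclear groups had few calls, with most changes above 0. All 17 measured subunits of the nuclear RNA polymerases had a change above 0, with a median of 0.42 against 0.03 for all genes, and 4 rose and none fell. NRPB9A, for a subunit of polymerase II, was at 6.26 and 5.83 in estriol and 5.07 and 4.61 in mock arrays (1.21 ± 0.25, adjusted p = 0.00719), and NRPB7 rose by 0.86 ± 0.2. Of 33 chromatin genes 5 rose, 15.2% against 8.33% of all genes, and none fell (median change 0.27, 27 above 0). ATRX (AT1G08600), for a remodeller that deposits a histone variant, was at 10.18 and 10.04 in estriol and 8.92 and 8.8 in mock arrays (1.25 ± 0.16, adjusted p = 0.000321). Of 23 genes of mitosis and the cell cycle 4 rose (17.4%) and none fell (median change 0.24, 20 above 0). CDC27a, for a subunit of the complex that degrades mitotic cyclins, rose by 1.22 ± 0.14, and the kinase gene AUR1 was at 10.48 and 10.46 in estriol and 9.7 and 9.72 in mock arrays (0.76 ± 0.15). Omitting 1 array, 0 to 2 polymerase subunits, 2 chromatin genes and 3 mitosis genes rose, and NRPB9A and NRPB7 reached adjusted p-values up to 0.0721 and 0.0985. The measured members of the cell division marker list, 3 of 22 listed genes, had a summed linear signal of 2278 and 2272 in estriol arrays against 1548 and 1554 in mock arrays. Of these 3, AUR1 rose, and AUR2 (0.29 ± 0.15, adjusted p = 0.237) and PRL (0.25 ± 0.15, adjusted p = 0.332) did not pass. What a change in dividing cells contributes was not tested.

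Members of these groups also rose in the other inductions, in which more genes passed in all (28.4% with Dof2.2 and 34.0% with Dof1.1). Of the 32 DNA replication and repair genes, 21 rose with Dof2.2, where 14.8% of all genes did, and 23 rose with Dof1.1, where 17.8% did. The median change was 0.37 with PEAR2, 0.55 with Dof2.2 and 0.6 with Dof1.1. In limma's direct test none of the 105 genes of the 4 groups differed between the PEAR2 change and either other change after adjustment. At an unadjusted p below 0.05, 13 differed from Dof2.2 and 23 from Dof1.1, so the changes were not shown to be equal.

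**Figure D4:**
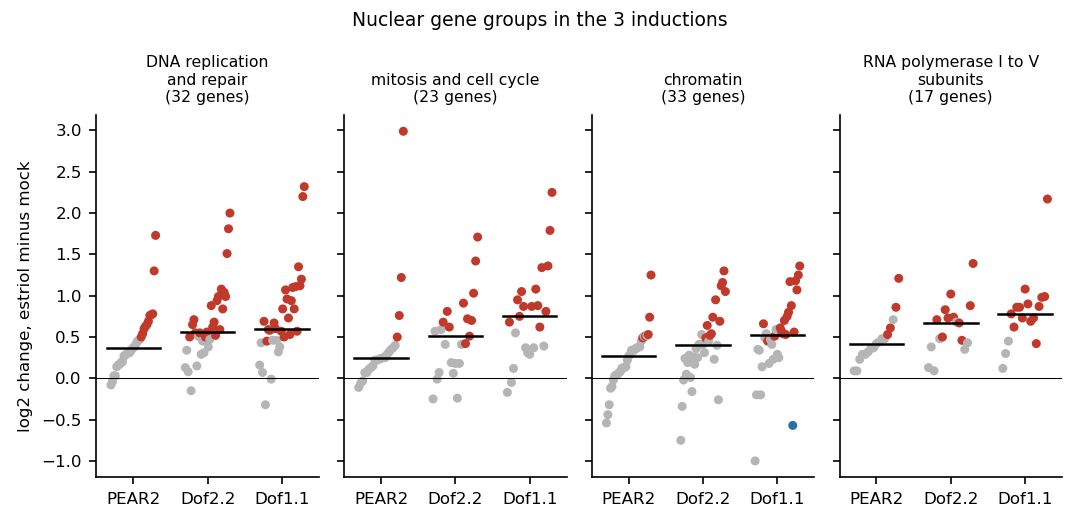
Log2 change of estriol minus mock for each member of 4 nuclear gene groups in the PEAR2, Dof2.2 and Dof1.1 inductions, with red and blue for genes that rose and fell, grey for those that did not pass, and a bar at the median. In DNA replication and repair the median is 0.37 with PEAR2, 0.55 with Dof2.2 and 0.6 with Dof1.1.

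Protein turnover and membrane traffic showed scattered calls. Among 16 PUB and ATL ubiquitin ligase genes 3 rose (18.8%) and 2 fell (12.5%), where 8.33% and 10.4% of all genes did. ATL4H was at 10.97 and 10.8 in estriol and 7.38 and 7.31 in mock arrays (3.54 ± 0.17), and PUB22, a negative regulator of immune signalling, was at 6.69 and 6.38 in estriol and 8.5 and 8.45 in mock arrays (-1.94 ± 0.23). Of 12 UBP genes, whose enzymes remove ubiquitin, 2 rose (16.7%) and none fell, with UBP21 at 0.96 ± 0.16. Among 16 PRA1 genes of vesicle transport 2 rose and 2 fell (12.5% each), near the shares of all genes. PRA1.G1 was at 5.86 and 6.04 in estriol and 8.11 and 8.41 in mock arrays (-2.31 ± 0.16). Of 11 autophagy genes, most of them of the ATG8 group, whose protein coats the autophagosome, 3 ATG8 genes fell, none rose and 8 did not pass. ATG8H (AT3G06420) was at 8.99 and 9 in estriol and 10.41 and 10.26 in mock arrays (-1.34 ± 0.22, adjusted p = 0.00161), and it was counted whichever array was left out, while APG8A and ATG8E reached adjusted p-values up to 0.168 and 0.159. None of 16 exocyst, 16 ESCRT and 9 Mediator genes passed by limma, and at an unadjusted p below 0.05 only 1 Mediator gene did.

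None of 63 plastid-encoded genes passed by limma (0 also at an unadjusted p below 0.05), and their changes lay between -0.5 and 0.07. Of 21 nuclear photosynthesis genes 4 fell and 1 rose, with a median change of -0.48 and 19 changes below 0, and 0 or 1 fell with any 1 array left out. LHCB4.2, for a light-harvesting protein, was at 6.02 and 6.06 in estriol and 6.62 and 6.6 in mock arrays (-0.57 ± 0.17, adjusted p = 0.047, up to 0.182 with 1 array left out and 0.056 with same-numbered arrays paired). RCA, the measured marker of photosynthetic tissue, stood at 8.22 and 8.43 in estriol and 8.74 and 8.95 in mock arrays (-0.52 ± 0.19, adjusted p = 0.0834, and 0.042 with same-numbered arrays paired). Of 14 genes of the citrate cycle, isocitrate dehydrogenases outside it and ATP-citrate lyase, a cytosolic enzyme, 3 fell and none rose. The falls were 21.4%, against 10.4% of all genes, and 1 or 2 were counted with 1 array left out. SDH1-2, for a subunit of succinate dehydrogenase, changed by -1.75 ± 0.28, and ACLA-2, for a subunit of the lyase, by -0.57 ± 0.17 (adjusted p = 0.0442). Of 14 cold and dehydration genes 3 fell, also 21.4% (1 or 2 with 1 array left out), and 1 rose. COR47, for a dehydrin, was at 9.79 and 9.85 in estriol and 11.06 and 10.94 in mock arrays (-1.18 ± 0.13).

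Cell type markers were measured only in part, since few listed genes have an entry of their own. All 6 measured genes of the 22 on the procambium and cambium list rose. They were CLE41, CLE42 and CLE44 and, beyond these, MOL1 (2.03 ± 0.17), PHV (0.99 ± 0.16) and LHW (0.58 ± 0.16). CLE peptides signal between cells, so their genes need not mark the cells that respond. The rises of CLE41, CLE42 and CLE44 are therefore not evidence of procambium or cambium cells, although they stand on this list. The summed linear signal of the 6 was 6719 and 6356 in estriol arrays against 1576 and 1625 in mock arrays. In such a sum bright genes like CLE41 weigh most. PHV (AT1G30490), an HD-ZIP III factor, was at 8.86 and 8.73 in estriol and 7.75 and 7.86 in mock arrays (adjusted p = 0.00167). LHW lost its call without any of the 4 arrays (adjusted p up to 0.16). Of 4 measured sieve element markers 2 rose, CLE25 and OPS, a polarity gene of sieve element formation, at 1.21 ± 0.15. CLE45 and CLE26 did not pass. Of 4 companion cell markers SWEET11 and SWEET13 rose, and the glucosinolate transporter genes GTR1 (-0.59 ± 0.14) and GTR2 (-0.64 ± 0.16) fell, though neither of these falls was secure (adjusted p up to 0.117 and 0.142 with 1 array left out). JKD of the cortex changed by -0.37 ± 0.17 (adjusted p = 0.176). Of 3 measured pericycle and lateral root markers, from 11 listed, LBD29 changed by -1.26 ± 0.39 (adjusted p = 0.0489). This fall was not secure, and the change lay between -1.51 and -1.02 with 1 array left out. LBD16 (0.13 ± 0.24) and PUCHI did not pass. No listed marker of xylem, endodermis or root cap was measured.

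Some genes changed in step with their neighbours on the chromosome. Runs of at least 4 adjacent measured genes that passed in 1 direction numbered 17, of which 13 fell and 4 rose, and they held 73 of the 3105 genes that passed. Array probes can be shared between similar neighbouring copies, so members of a run are not independent measurements. The 5 genes from AT3G22070 to AT3G22104 on chromosome 3 rose by 0.93 to 5.84. AT3G22100 was at 10.23 and 10.24 in estriol and 4.56 and 4.24 in mock arrays, and AT3G22070 was at 10.38 and 10.19 in estriol and 6.9 and 6.67 in mock arrays. The 4 genes from AT5G23350 to AT5G23380 on chromosome 5 rose by 1.23 to 3.8. On chromosome 1 the 4 measured genes from AT1G61795 to AT1G61840, which include the monolignol glucosidase genes BGLU45 and BGLU46, changed by -2.64 to -1.48. Also on chromosome 1, the 5 genes from AT1G51830 to AT1G51870 changed by -2.83 to -1.2, with AT1G51840 at 7.98 and 8.06 in estriol and 10.2 and 10.12 in mock arrays. The lowest change within this run was -2.83 with PEAR2, -6.04 with Dof2.2 and -5.43 with Dof1.1, not necessarily in the same gene. Of the 5 genes, 4 differed from at least 1 of the other lines.

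Whether the PEAR2 induction differed from the other inductions was tested directly, as the difference of the changes. Lines looked normalized separately, so levels are not compared between them, and the Dof1.1 line also differs in background. Against the Dof2.2 line 275 genes differed (1.66%), 225 with the higher change in the PEAR2 line (1.36%) and 50 with the lower (0.302%). Against the Dof1.1 line 482 genes differed (2.91%), 277 higher (1.67%) and 205 lower (1.24%). Most of the higher ones were falls that were smaller in the PEAR2 line. Of the 225, 166 fell in both lines, and the median change over the 225 was -1.73 with PEAR2 and -3.52 with Dof2.2. Of the 277, 205 fell in both lines, and their median was -1.33 with PEAR2 and -2.98 with Dof1.1. Among the 205 lower ones, 193 rose with Dof1.1 and 81 in both lines, with medians of 0.4 with PEAR2 and 2.34 with Dof1.1. In 147 genes the PEAR2 change differed from both others, being the highest of the 3 in 119, the lowest in 17 and between them in 11. Of the 119, 104 fell in all 3 lines and 11 rose in the PEAR2 line. Leaving out 1 array at a time, 111 to 355 genes differed from the Dof2.2 line and 180 to 299 from the Dof1.1 line.

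Root hair and wall genes illustrate the smaller falls. EXPA18 changed by -1.88 with PEAR2, -5.17 with Dof2.2 and -3.98 with Dof1.1, and the differences were 3.29 ± 0.22 (adjusted p = 9.58e-05) and 2.1 ± 0.22 (adjusted p = 0.00125). GH9C1 changed by -2.25 with PEAR2, -5.93 with Dof2.2 and -5.16 with Dof1.1, and its differences were 3.68 ± 0.27 (adjusted p = 0.000146) and 2.91 ± 0.27 (adjusted p = 0.000723). UGT72E1 changed by -1.99 in the PEAR2 line and -5.24 in the Dof2.2 line (difference 3.26 ± 0.52, adjusted p = 0.012, and up to 0.0687 with 1 array left out). CLE14 and WES1 also changed less. CLE14 differed by 2.22 ± 0.3 from the Dof2.2 and 2.27 ± 0.3 from the Dof1.1 line, and WES1, which changed by -1.62 and -1.43 there, by 1.55 ± 0.29 and 1.36 ± 0.29 (adjusted p = 0.0262 and 0.0351). Each WES1 difference lost its call without 7 of its 8 arrays in turn (adjusted p up to 0.134 and 0.147), and with same-numbered arrays paired the p-values for WES1 were 0.0738 and 0.0691.

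Some rises were larger in the PEAR2 line. SWEET11 changed by 4.01 in the PEAR2 and 0.3 in the Dof2.2 line, and the difference of 3.72 ± 0.78 just passed (adjusted p = 0.0482). The SWEET11 difference lost the call without 6 of its 8 arrays in turn (adjusted p up to 0.166), and the difference from the Dof1.1 line did not pass (2.53 ± 0.78, adjusted p = 0.134). AT2G19802 rose by 6.45 ± 0.2 from a dim level in the PEAR2 line and changed by -0.04 in the Dof2.2 line, a difference of 6.49 ± 0.28 (adjusted p = 1.02e-05). It rose in the Dof1.1 line by 4.81.

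Other genes had changes below those in the Dof1.1 line. AT5G38930 was dim at 3.49 and 2.97 in estriol and 3.33 and 3.16 in mock arrays, and rose by 8.18 in the Dof1.1 line, a difference of -8.19 ± 0.41 (adjusted p = 3.14e-05). AT5G37940 was dim as well and differed from the Dof1.1 line by -7.38 ± 0.39. The cellulase gene GH9A4 rose by 1.18 ± 0.23 in the PEAR2 line (adjusted p up to 0.0513 with 1 array left out) and by 6.88 in the Dof1.1 line (difference -5.71 ± 0.32). GH9B6 changed by 1.66 with PEAR2, -1.5 with Dof2.2 and 5.17 with Dof1.1, and the differences were 3.15 ± 0.46 (adjusted p = 0.00781, and 0.0656 with same-numbered arrays paired) and -3.52 ± 0.46 (adjusted p = 0.00376). PHV rose less than in the Dof1.1 line (-1.04 ± 0.23, adjusted p = 0.0414), a difference that no analysis with 1 of its 8 arrays left out kept past the threshold (adjusted p up to 0.155).

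**Figure D5:**
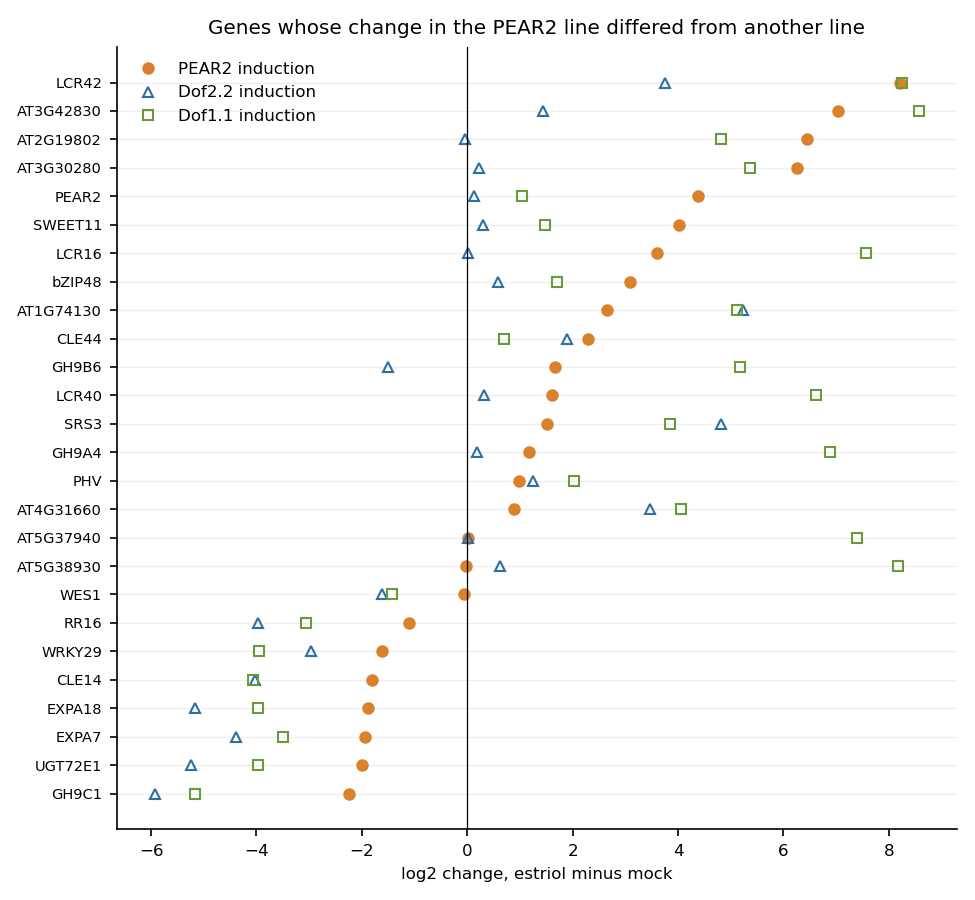
Log2 change of estriol minus mock in the PEAR2 (filled circles), Dof2.2 (triangles) and Dof1.1 (squares) inductions for genes whose PEAR2 change differed from at least 1 other line, ordered by the PEAR2 change. GH9C1, EXPA18 and EXPA7 fell in all 3 lines and least in the PEAR2 line.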

How the data were processed

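RNA of entire roots was hybridised to one-colour arrays. The deposited values are log2 signals, 1 per table entry, and RMA is named per the submitters' processing notes. Its version and its software were not given in the sources used here. Array quantiles lay closer within a line than between lines, so levels were not compared across lines. Entries were named through a platform list and RefSeq gene names. Of 17481 listed entries 16722 name 1 gene, 16574 matched by gene identifier and 141 by name, and 7 stayed unmatched. Where a gene had more than 1 entry (148 genes), its brightest on average was used. PEAR2 was taken as AT5G02460 from its published nomenclature. No column of the table was left unused.

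Group means of all 12 arrays were fitted in 1 model with limma 3.58.1 (R 4.3.3) and eBayes, which left 6 residual degrees of freedom, and each change and each difference of changes was a contrast, tested two-sided. The analysis was checked on simulated data. Titles call the 2 arrays of a group biological replicates; nothing says whether they came from separate plates, so p-values measure the spread between these samples, and their number limits precision. The difference between the 2 arrays of a group had a correlation between estriol and mock of 0.13 in the PEAR2, 0.17 in the Dof2.2 and 0.32 in the Dof1.1 line. No label says that a number marks a shared plate or day, so the reported fit has no block, and the adjusted p with same-numbered arrays of a line paired stands beside each named result whose call it changes.

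Families were formed from gene symbols and their synonyms; 2 families and a few genes are not reported here. Members and lists were chosen with earlier results of these data known. In families with at least 8 measured members of which 30% passed 1 way, up to 5 members of that direction and 2 of the other were named by size among those with groups apart, in other families up to 2 members, and otherwise measured markers, up to 8 genes per direction of a difference and runs of at least 4 neighbours. NAI2, PYK10, SAG29, SWEET1, SWEET17, IAA31, TUB5, RAD9, POLD3 and further members named beyond these numbers were chosen after their values were seen. Alternatives were other normalizations, dim genes left out, trended or weighted fits, the arrays of the compared lines alone, a replicate block, all entries, a 2-fold minimum, entry means and each array left out.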

Additional observations from a re-analysis of the deposited data

Results flagged for a closer look

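The change in the PEAR2 line differed from that in the Dof2.2 line for 275 genes and from that in the Dof1.1 line for 482, by limma's test of the difference itself. The values here are those differences on the log2 scale, PEAR2 change minus the other.

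Against the Dof2.2 line the transgene itself differed by 4.25 (PEAR2). Higher changes were found in AT2G19802 (6.49), AT3G30280 (6.03), AT3G42830 (5.6), LCR42 (4.46), SWEET11 (3.72), GH9C1 (3.68), LCR16 (3.59), EXPA18 (3.29), UGT72E1 (3.26), GH9B6 (3.15), RR16 (2.88), bZIP48 (2.51), EXPA7 (2.45), CLE14 (2.22) and WES1 (1.55). Lower changes were found in SRS3 (-3.32), AT1G74130 (-2.59) and AT4G31660 (-2.58). RR16 lost its call without 6 of the 8 arrays in turn (adjusted p up to 0.11), SRS3 without 5 (up to 0.111) and bZIP48 without 2 (up to 0.0586), and AT4G31660 without 1 (0.0517). With same-numbered arrays paired the adjusted p was 0.0669 for RR16, 0.117 for SRS3 and 0.0514 for bZIP48. The PEAR2 change of SRS3 itself was 1.51 (adjusted p = 0.0396 by limma, and 0.0953 with same-numbered arrays paired).

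Against the Dof1.1 line PEAR2 differed by 3.36. Higher changes were found in GH9C1 (2.91), WRKY29 (2.36), CLE14 (2.27), EXPA18 (2.1), CLE44 (1.61), EXPA7 (1.55) and WES1 (1.36). Lower changes were found in AT5G38930 (-8.19), AT5G37940 (-7.38), GH9A4 (-5.71), LCR40 (-5.02), LCR16 (-3.96), GH9B6 (-3.52), AT4G31660 (-3.17), AT1G74130 (-2.47) and PHV (-1.04). CLE44 and EXPA7 each lost the call without 3 of the 8 arrays in turn (adjusted p up to 0.0686 and 0.0636). AT4G31660 was dim in both groups of the PEAR2 line. The PEAR2 change of LCR40 itself was 1.6 (adjusted p = 0.0213 by limma, and 0.0534 with same-numbered arrays paired).

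Outside the named genes, 11861 entries do not name exactly 1 gene, and 2426 of them passed in the PEAR2 line (20.5%), 1091 higher and 1335 lower.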

How the results depend on the processing

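Under the alternatives run, no named change or difference that passed turned its direction. LBD16, WES1, AT5G38930 and AT5G37940, whose PEAR2 changes did not pass, crossed 0 with single arrays left out, LBD16 between -0.05 and 0.31, WES1 between -0.18 and 0.04, AT5G38930 between -0.28 and 0.25 and AT5G37940 between -0.4 and 0.43. The median change of all genes stayed between 0.01 and 0.05. Of 146 named genes that passed in the PEAR2 line, 99 also passed under every alternative, as did 11 of 19 named differences from the Dof2.2 line and 13 of 17 from the Dof1.1 line. With all entries of the table tested, 5621 entries passed in the PEAR2 line, 490 differed from the Dof2.2 line and 854 from the Dof1.1 line, since more entries were tested. A 2-fold minimum left 1780 genes in the PEAR2 line and 5 families with at least 30% of members past it in 1 direction. That family count was 19 with the dimmest genes left out (lowest 0.25 by mean signal), where families have fewer members, and 19 with array weights, where the cause was not tested. With 1 array left out, 1859 to 2043 genes passed in the PEAR2 line, 4 to 5 families reached the share, 111 to 355 genes differed from the Dof2.2 line and 180 to 299 from the Dof1.1 line. With same-numbered arrays as a replicate block, 3663 genes passed in the PEAR2 line, 229 and 482 differed from the Dof2.2 and Dof1.1 lines (171 and 339 of them shared with the unpaired fit) and 11 families reached the share. That block lost 7 named calls in the PEAR2 line, 5 differences from the Dof2.2 line and 1 from the Dof1.1 line. It gained 1 call and changed no other named call. Its pairs follow the replicate numbers in the titles, which are not said to mark a shared plate or day. With 2 arrays per group and genes near background, small changes are not resolved.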
